A study of Mus musculus with 6 samples.

Results

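The genes described here carry ions, acid and base equivalents and water across cell membranes. They comprise chloride channels, cation-chloride cotransporters, the epithelial sodium channel, sodium pump beta subunits with their FXYD partners, bicarbonate transporters, anion and proton exchangers, carbonic anhydrases, aquaporins and potassium channels. The 44 genes were listed by name for their function, with earlier results of these arrays known. A gene was read from the array feature annotated to it alone, taking the feature with the highest mean over the 6 arrays where several existed. This gave 43 genes of the 19946 tested, and Slc4a7 was not analysed here. Whole lungs of mouse embryos at E14.5 were profiled on 1 array per embryo. The 3 mutant embryos carried Shh-Cre together with loxP-flanked alleles, written in their label as Foxp1flox/flox, again Foxp1flox/flox, and Foxp4flox/flox, where the title of the series names Foxp1, Foxp2 and Foxp4 and its design text writes DKO. Which alleles were floxed is thus not settled by the labels. The 3 control embryos carried Shh-Cre without floxed alleles being named, and all 6 embryos had a mixed background of C57BL/6 and 129X1. Cre driven from the Shh locus recombines in the endoderm that lines the airways, so mesenchyme, vessels and blood are not its target although their RNA is in every sample.

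The fetal lung is a fluid-filled, secreting organ. Its epithelium takes up chloride from the mesenchymal side through the cotransporter encoded by Slc12a2 and releases it into the lumen through channels such as Cftr and Ano1, with sodium and water following, and this fluid keeps the growing airways distended. Around birth the epithelium turns to absorption, in which sodium enters through the epithelial sodium channel (alpha, beta and gamma subunits, from Scnn1a, Scnn1b and Scnn1g) and is pumped out by the sodium pump. Carbonic anhydrases and bicarbonate carriers set the pH of the fluid and supply anions, and aquaporins let water pass.

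The authors' values are on a log2 scale after RMA, the robust multi-array average, and differences are mutant minus control on that scale, so a difference of 1 is 2-fold. Of the Foxp genes that the series title names, Foxp2 averaged 9.58 ± 0.03 in mutants and 10.53 ± 0.01 in controls, and Foxp4 averaged 8.76 ± 0.20 in mutants and 9.40 ± 0.03 in controls (SD, n = 3 each). Both were lower in the mutants, with limma adjusted p of 4.75e-05 and 0.00591. Foxp1, at 9.42 ± 0.15 in mutants and 9.72 ± 0.04 in controls, did not pass the threshold of 0.05 (adjusted p = 0.0661). Nkx2-1, the homeobox factor that defines lung endoderm, read 8.98 to 9.44 in mutants and 10.09 to 10.16 in controls. Array medians lay between 6.70 and 6.79. Mutant 1 stood apart in heart muscle genes. The median level of 18 such genes was 7.86 in mutant 1, 6.53 in mutant 2 and 6.62 in mutant 3, against 6.68 to 6.82 in the controls, and 0 of the 18 passed.

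Most of the changes among the transport genes were falls in the mutants. Of the 43 genes, 9 fell and 4 rose, and 30 did not pass. The 13 changes are 30.2% of the list, beside 7.66% of all genes tested, and the falls alone are 20.9% beside 3.83%, the rises 9.30% beside 3.84%. The genes were listed with earlier results of these arrays known, so these shares describe the list and carry no test. The median difference over the list was only -0.06, beside -0.01 over all genes. The list thus held a minority of large changes among many small ones. Changes of at least 2-fold were found in 6 of the 43 genes (14.0%), beside 0.958% of all genes. They were the falls of Scnn1g, Slc26a9, Ano1, Cftr and Scnn1b and the rise of Car4. The mutant values lay wholly above or below the control values for 22 of the 43 genes (51.2%), beside 25.9% of all genes.

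**Figure D1:**
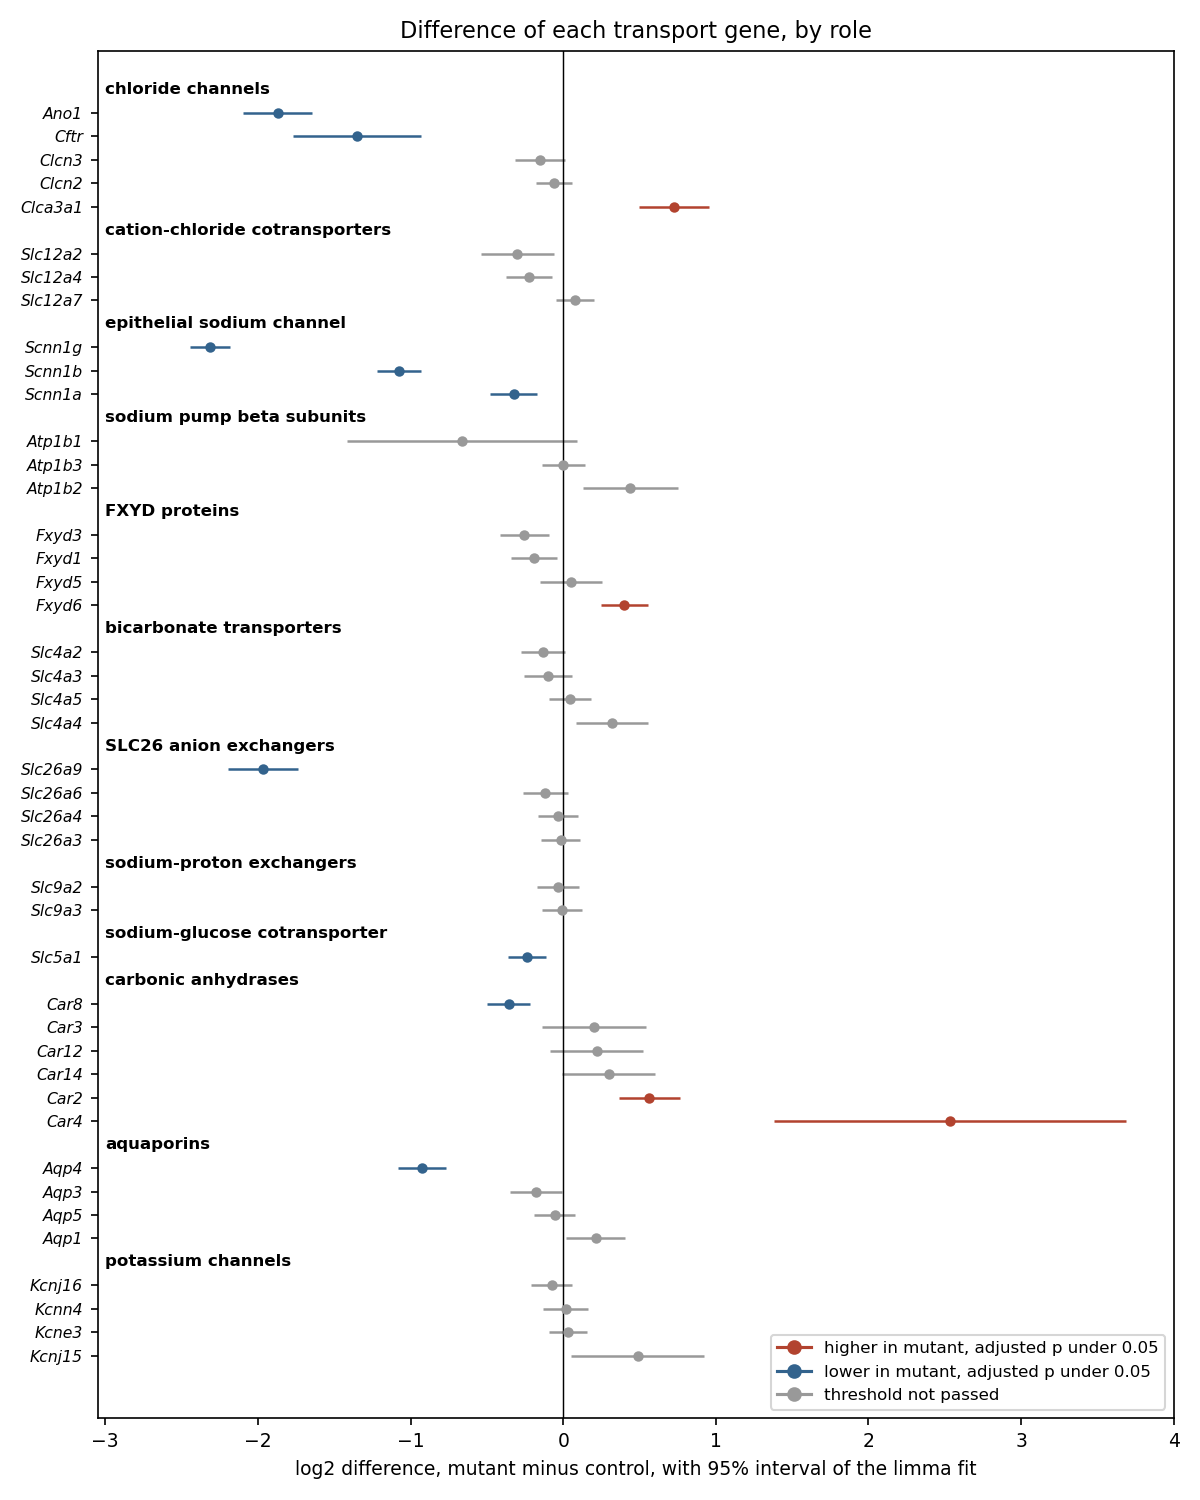
The horizontal axis gives the log2 difference of each of the 43 transport genes, mutant minus control, with the 95% interval of the limma fit, and the genes run down the page by role. All 3 subunits of the epithelial sodium channel lie to the left of 0, and the interval of Car4, from 1.38 to 3.68, is the widest drawn. Slc26a9 stands apart from the other SLC26 genes near 0, of which Slc26a3 and Slc26a4 were read close to the floor of the arrays.

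The epithelial sodium channel was lower in all 3 of its subunits, and to unequal extents. Scnn1g, the gamma subunit, read 5.70, 5.73 and 5.62 in mutants 1 to 3, against 8.03, 7.97 and 7.98 in controls 1 to 3. The groups are far apart and neither spreads by more than a small part of the gap. The difference was -2.31 ± 0.06 (SE, n = 3 per group), or 4.97-fold lower, with a limma adjusted p of 1.1e-06, and only 16 of all genes tested fell further. Scnn1b, the beta subunit, read 5.41, 5.47 and 5.40 in mutants and 6.57, 6.42 and 6.52 in controls, a difference of -1.08 ± 0.06 or 2.11-fold (adjusted p = 5.75e-05). Scnn1a, the alpha subunit, which the channel needs for its current, fell by less on its probes. It read 6.13, 6.24 and 6.16 in mutants and 6.48, 6.42 and 6.60 in controls, a difference of -0.32 ± 0.07 (adjusted p = 0.0252). In none of the 3 genes did a mutant reach the lowest control, and the subunits were not tested against each other. Mutant means of Scnn1b and Scnn1g were at percentiles 21.4 and 25.3 of all genes, near the floor of the arrays, where RMA compresses differences, so their folds may understate the falls. The calls of Scnn1g and Scnn1b held with any array left out, while that of Scnn1a was lost without control 3 (adjusted p = 0.106) and passed with only 1 of the 6 arrays left out. It was also lost when all features were tested (adjusted p = 0.0695).

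Scnn1g and Scnn1b are direct neighbours on mouse chromosome 7, with no other protein-coding gene between them in the RefSeq annotation, while Scnn1a lies on chromosome 6. Promoter sequence is shown for this pair, for Slc26a9, the largest fall of the transport genes after Scnn1g, and for Car4, the largest rise among them. Each line gives the 250 bases before the annotated start, 5′ to 3′ on the gene's strand, from RefSeq on assembly GRCm38.p6. Capitals mark matches, on either strand, to a forkhead core (TGTTTNC), to a core of the lung homeobox factor NKX2-1 (CAAGTG) and to a TATA box (TATAAA).
Scnn1g promoter, chr7:121734229-121734478, plus strand: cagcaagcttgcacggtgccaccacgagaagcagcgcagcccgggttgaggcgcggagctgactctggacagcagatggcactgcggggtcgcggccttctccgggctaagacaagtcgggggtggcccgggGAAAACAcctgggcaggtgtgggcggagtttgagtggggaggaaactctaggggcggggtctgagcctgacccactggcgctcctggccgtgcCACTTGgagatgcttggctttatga
Scnn1b promoter, chr7:121864788-121865037, plus strand: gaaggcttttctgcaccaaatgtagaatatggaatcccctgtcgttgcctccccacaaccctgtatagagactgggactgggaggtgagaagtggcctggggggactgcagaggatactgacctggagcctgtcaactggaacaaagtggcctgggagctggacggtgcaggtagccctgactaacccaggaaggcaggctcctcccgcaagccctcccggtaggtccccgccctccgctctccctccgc
Slc26a9 promoter, chr1:131743772-131744021, plus strand: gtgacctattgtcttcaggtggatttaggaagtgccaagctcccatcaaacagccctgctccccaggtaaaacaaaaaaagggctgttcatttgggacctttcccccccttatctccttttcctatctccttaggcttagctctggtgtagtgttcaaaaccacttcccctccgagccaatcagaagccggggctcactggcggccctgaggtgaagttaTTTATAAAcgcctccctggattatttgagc
Car4 promoter, chr11:84957504-84957753, plus strand: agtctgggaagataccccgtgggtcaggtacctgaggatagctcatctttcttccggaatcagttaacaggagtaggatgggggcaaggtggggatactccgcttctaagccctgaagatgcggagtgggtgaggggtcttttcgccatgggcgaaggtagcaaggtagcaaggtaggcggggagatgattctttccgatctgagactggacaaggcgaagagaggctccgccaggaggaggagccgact
In this window Scnn1g holds 1 forkhead match, starting 118 bases before the start, and 1 NKX2-1 match, starting 25 bases before it, both on the opposite strand. Slc26a9 holds a pair of TATA matches that overlap each other, from 30 bases before the start. Scnn1b, Car4, Cftr and Ano1 hold none of the 3 motifs here. The forkhead core is common, in 17.8% of the 32851 promoter windows of this length in the table, the NKX2-1 core is in 11.6% and the TATA box in 12.4%. A promoter was on hand for 35 of the 43 genes. A match is a run of letters and not a shown binding site.

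The falls of the channel subunits came in lungs with lower epithelial markers overall. Of 25 genes that mark lung epithelium, 17 fell and 0 rose, with a median difference of -0.54. The median level of these genes was 8.50, 8.94 and 8.97 in mutants 1 to 3, against 9.69, 9.64 and 9.53 in controls 1 to 3. Epcam, an adhesion molecule of most epithelia, differed by -0.33 (adjusted p = 0.0384), and the epithelial cadherin gene Cdh1 by -0.19 (adjusted p = 0.0684). The differences of Scnn1g and Scnn1b were larger than those of Epcam and Cdh1. That of Scnn1a, at -0.32, was close to that of Epcam. Other markers fell by more than Epcam, such as Krt8 (-1.03), Esrp2 (-1.15), Elf5 (-1.37) and Sox2 (-2.08), while 8 of the 25 did not pass. Sftpc, the surfactant gene of distal epithelium, differed by -5.58 (adjusted p = 2.6e-09). The 25 markers ran from -5.58 (Sftpc) to 0.01 (Spint1), a range so wide that lying within it says little about the subunits. Besides Sftpc, only Cldn18 (-4.77) fell further than Scnn1g. In whole lung, fewer epithelial cells and less RNA per cell cannot be told apart, and the part of epithelial content in the transport gene falls was not tested.

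Genes that act on the sodium channel moved in both directions. Of 13 measured partners and regulators, 1 fell, 2 rose and 10 did not pass. Prss8, the membrane-bound protease prostasin that activates the channel by cutting its gamma subunit, read 8.38, 8.91 and 8.72 in mutants and 9.57, 9.49 and 9.62 in controls. Its difference was -0.89 ± 0.12 (adjusted p = 0.00409). Tsc22d3, a glucocorticoid-induced gene, was higher (0.38 ± 0.07, adjusted p = 0.0116), and so was Furin (0.28 ± 0.07, adjusted p = 0.0436), the protease that cuts the channel before it reaches the surface. The call of Tsc22d3 ended without control 2 (adjusted p = 0.0613) or control 3, and that of Furin without control 3 (adjusted p = 0.175) and held with only 1 of the 6 arrays left out.

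The sodium pump genes did not pass, and Atp1b1, the main beta subunit of epithelia and heart, divided the mutants. It read 9.79 in mutant 1, 8.43 in mutant 2 and 8.45 in mutant 3, against 9.58, 9.42 and 9.65 in the controls. Mutants 2 and 3 thus lay well below every control and mutant 1 above them all. The difference over all arrays was -0.66 ± 0.33 (adjusted p = 0.317). Mutant 1 is the array with the high heart muscle genes, where the myosin gene Myh6 read 10.29, against 6.98 and 6.95 in mutants 2 and 3 and 7.44 to 7.58 in controls. Without mutant 1 the difference of Atp1b1 was -1.11 (adjusted p = 0.000293). Dropping the highest mutant value lowers the mutant mean by construction, and the part of heart tissue in its value was not tested.

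The other beta subunits showed no such pattern. Atp1b2, known from brain and muscle, read 8.28, 7.999 and 8.60 in mutants and 7.84, 7.82 and 7.90 in controls, all mutants above all controls, with a difference of 0.44 ± 0.13 that did not pass (adjusted p = 0.102). It passed without mutant 2 (0.59, adjusted p = 0.0117), the lowest of the mutants, and with array weights (0.56, adjusted p = 0.0128). Dropping the lowest mutant raises the mutant mean by construction. Atp1b3, the third beta subunit, averaged 11.07 ± 0.08 in mutants and 11.07 ± 0.04 in controls, and its second feature differed by 0.06. Of 8 further pump and FXYD genes measured, 0 passed.

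FXYD proteins are small membrane proteins that bind the pump and tune its affinity. Fxyd6 rose, reading 9.65, 9.72 and 9.78 in mutants against 9.34, 9.22 and 9.38 in controls (0.40 ± 0.07, adjusted p = 0.00939). Fxyd3, a form found in many epithelia and their tumours, read 6.78, 6.77 and 6.92 in mutants and 7.07, 6.997 and 7.16 in controls. The mutants were all below the controls, yet the difference of -0.25 ± 0.07 missed the threshold (adjusted p = 0.0689). Fxyd1, phospholemman of heart and smooth muscle, differed by -0.19 ± 0.06 (adjusted p = 0.134), also with no overlap. Fxyd5, which also affects cell adhesion, averaged 10.23 ± 0.18 in mutants and 10.18 ± 0.03 in controls (adjusted p = 0.83).

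Of the 5 chloride channel genes 2 fell, Ano1 and Cftr, 1 rose and 2 did not pass, and of the 4 SLC26 genes Slc26a9 fell. Ano1, a calcium-activated chloride channel, read 7.94, 7.88 and 7.57 in mutants and 9.61, 9.72 and 9.66 in controls. The groups were far apart, and the difference of -1.87 ± 0.10 was 3.65-fold (adjusted p = 4.34e-05). Cftr, the cyclic AMP-regulated channel that is defective in cystic fibrosis, read 6.11, 6.30 and 6.78 in mutants and 8.03, 7.65 and 7.56 in controls. Its groups did not overlap, the spread was wider than for Ano1 in both groups, and the difference was -1.35 ± 0.18 or 2.55-fold (adjusted p = 0.00362). Slc26a9, an anion transporter that conducts chloride in airway and stomach epithelium, read 5.91, 5.76 and 6.00 in mutants and 7.70, 8.05 and 7.82 in controls. This was a fall by 3.91-fold (-1.97 ± 0.10, adjusted p = 3.88e-05). The calls of all 3 genes held with any array left out, with adjusted p up to 0.000817 for Ano1, 0.0171 for Cftr and 0.000693 for Slc26a9.

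Ano1 is also a channel of smooth muscle and related pacemaker cells, and smooth muscle genes were lower in these lungs. Of 10 smooth muscle markers, 7 fell and 0 rose, with a median difference of -1.58. Their median level was 8.06, 7.29 and 7.34 in mutants 1 to 3, against 9.47, 9.36 and 9.45 in controls 1 to 3. Myocd, the coactivator that drives the smooth muscle programme, differed by -1.74 ± 0.08 (adjusted p = 1.61e-05). The part of smooth muscle in the fall of Ano1 was not tested. Cftr is known in the adult airway from ionocytes, and Foxi1, the factor that specifies them, read 5.43 ± 0.08 in mutants and 5.52 ± 0.05 in controls (adjusted p = 0.497), below percentile 25 of all genes in both groups. Of 8 ionocyte genes, a list that includes Cftr itself, Cftr was the only one to pass, 12.5% beside 7.66% of all genes tested. Ascl3, Atp6v0d2 and Bsnd of this list were also below percentile 25 in both groups, so it can show little.

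Clca3a1, of a family of secreted regulators of calcium-activated chloride conductance, went the other way from these channels. It read 6.87, 6.91 and 6.75 in mutants and 6.34, 6.04 and 5.98 in controls, a difference of 0.73 ± 0.10 (adjusted p = 0.00385). The voltage-gated channel gene Clcn2, once proposed as a fetal route of chloride secretion, differed by -0.06 (95% interval -0.18 to 0.06). The endosomal exchanger gene Clcn3 differed by -0.15 (95% interval -0.32 to 0.01). Of 35 other chloride channel genes measured, 3 fell and 0 rose. Clic6, a chloride intracellular channel gene, read 6.42, 6.89 and 6.65 in mutants and 8.32, 8.76 and 8.51 in controls (-1.88 ± 0.14, adjusted p = 0.000214). Its relatives Clic3 (-0.53 ± 0.07, adjusted p = 0.00375) and Clic5 (-0.44 ± 0.09, adjusted p = 0.0229) fell by less, and Clic5 no longer passed with any control left out, with adjusted p up to 0.105.

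Chloride entry was not shown to change. Slc12a2, the sodium-potassium-chloride cotransporter that loads chloride into secreting cells, read 10.26, 10.30 and 10.32 in mutants and 10.34, 10.71 and 10.73 in controls. All mutants were below all controls, by a small margin to control 1, and the difference of -0.30 ± 0.10 did not pass (adjusted p = 0.141). It passed without control 1 (-0.43, adjusted p = 0.0159), the lowest of the controls, whose removal raises the control mean by construction. Slc12a4, a potassium-chloride cotransporter for cell volume, read 8.13, 8.28 and 8.13 in mutants and 8.33, 8.44 and 8.45 in controls (-0.22 ± 0.07, adjusted p = 0.0932). It passed after quantile normalization was applied again (adjusted p = 0.0444) and with array weights (adjusted p = 0.0295). It also passed without mutant 2 (adjusted p = 0.0356), the highest of the mutants, whose removal lowers the mutant mean by construction. Slc12a7, of the same family, differed by 0.08 ± 0.05. Among 11 other cotransporters and their kinases, 1 changed, the kinase gene Wnk2 (-0.45 ± 0.07, adjusted p = 0.00891).

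**Figure D2:**
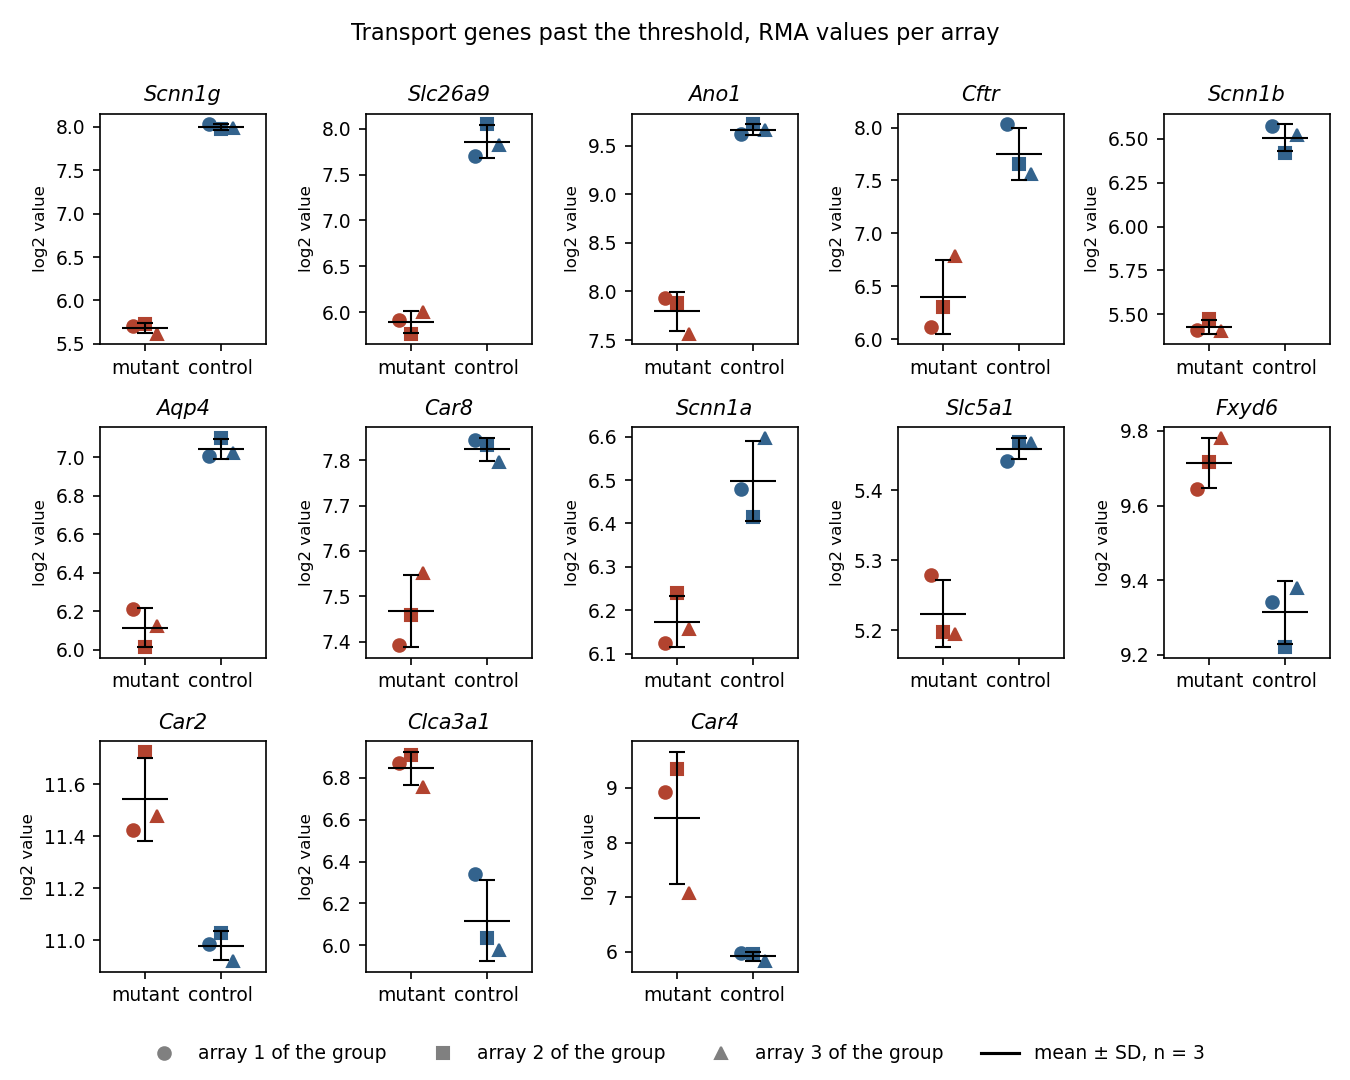
Each panel shows 1 of the 13 transport genes past the threshold, with the log2 values of the 3 mutant arrays on the left and the 3 control arrays on the right, their mean and SD, and a vertical scale of its own. No mutant value lies among the control values in any panel, and in Car4 the third mutant, at 7.08, stands between the other mutants and the controls.

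Potassium channels of the basal membrane, which recycle potassium and keep up the force for chloride exit, did not pass in 4 of 4 listed genes. Kcnj15, an inward rectifier, read 7.19, 6.52 and 7.36 in mutants and 6.52, 6.52 and 6.56 in controls, so mutants 1 and 3 were above every control and mutant 2 level with them. The difference was 0.49 ± 0.19 (adjusted p = 0.194). Without mutant 2 it was 0.74 (adjusted p = 0.00099), and with array weights, which are estimated from these same arrays, it was 0.65 (adjusted p = 0.0149). Dropping the lowest mutant raises the mutant mean by construction, and Kcnj15 passed with no other array left out. Kcne3, which with Kcnq1 forms the cyclic AMP-driven basal channel, differed by 0.03 ± 0.05, Kcnj16 by -0.08 ± 0.06, and the calcium-activated channel gene Kcnn4 by 0.02 ± 0.06. Of 16 other epithelial potassium channel genes, 2 rose and 2 fell. Kcnk1 (-0.57 ± 0.12, adjusted p = 0.0304) and Kcne4 (-0.46 ± 0.11, adjusted p = 0.0472) were lower and the stretch-gated channel gene Kcnk2 higher (0.50 ± 0.08, adjusted p = 0.00891). The acid-sensitive channel gene Kcnk5, named after its value was seen, was also higher (0.28 ± 0.07, adjusted p = 0.0449). Each of the 4 calls was lost with some array left out, with adjusted p up to 0.118 for Kcnk1, 0.171 for Kcne4, 0.0518 for Kcnk2 and 0.182 for Kcnk5.

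Carbonic anhydrases, the enzymes that interconvert carbon dioxide and bicarbonate, contributed 2 of the 4 rises. Car4, the form anchored to the outer cell surface, read 8.93, 9.35 and 7.08 in mutants and 5.98, 5.96 and 5.83 in controls. Every mutant was above every control, and mutant 3 was much nearer to the controls than mutants 1 and 2. The difference of 2.53 ± 0.50 was 5.78-fold, with 3 genes on the array rising further, and its adjusted p was 0.0201. The call was lost with any 1 control left out, with adjusted p from 0.0724 to 0.0855, under a mean-variance trend with robust moderation (adjusted p = 0.102) and when all features were tested (adjusted p = 0.0788). Without mutant 3, the lowest of the mutants, the difference was 3.22 (adjusted p = 6.55e-05), which is higher by construction. Car4 is known in the later lung from capillary endothelium, and of 12 endothelial markers 0 rose and 0 fell. Beside a share of 7.66% over all genes tested, a count of 0 among 12 says little. The mutants lay wholly below the controls for 4 of the 12 and wholly above for 0. The median level of the 12 markers was 9.87, 9.94 and 9.95 in mutants, against 10.004, 10.06 and 10.08 in controls. The part of vessels in the rise of Car4 was not tested.

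Car2, the abundant cytosolic form, read 11.43, 11.73 and 11.48 in mutants and 10.98, 11.03 and 10.92 in controls. The groups did not overlap and the difference was 0.56 ± 0.09 or 1.48-fold (adjusted p = 0.00633). Car2 is also a red cell enzyme, and of 9 red cell markers 5 fell and 0 rose, with a median difference of -0.34. Those that fell were Alas2, Slc4a1, Epb42, Trim10 and Rhag, while the globin genes Hbb-bh1, Hbb-y and Hba-x and the gene Klf1 did not pass. The median deviation of the markers from their control means was -0.34, -0.35 and -0.53 in mutants 1 to 3. It was -0.16, 0.30 and -0.10 in controls 1 to 3. The part of red cells in the rise of Car2 was not tested. Some markers of other cells were higher in the mutants. Of 12 macrophage markers 3 rose and 0 fell, 25% in all beside 7.66% of all genes tested. Their median level was 7.60, 7.95 and 7.78 in mutants, against 7.4996, 7.29 and 7.47 in controls. Lyz2 (-0.33) and Cd14 (-0.26) of this list were lower in the mutants and did not pass. Of 16 mesenchymal markers 4 rose and 1 fell, 31.25% in all, with a median difference of 0.03. The part of these cells in the rises of Car2, Car4, Clca3a1 and Fxyd6 was not tested. The neighbour of Car2 on chromosome 3, Car3, a form of muscle and fat, read 6.47, 7.11 and 6.62 in mutants and 6.59, 6.50 and 6.49 in controls (0.20 ± 0.15, adjusted p = 0.536).

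Car8 fell, at 7.39, 7.46 and 7.55 in mutants against 7.84, 7.83 and 7.79 in controls (-0.36 ± 0.06, adjusted p = 0.0106). Its product has lost the catalytic activity of the family and binds a calcium channel of the endoplasmic reticulum. The call ended without control 1 (adjusted p = 0.0534) or control 2 (adjusted p = 0.0562). The membrane forms Car12 (0.22 ± 0.13, adjusted p = 0.433) and Car14 (0.30 ± 0.13, adjusted p = 0.264) did not pass. Of 10 further carbonic anhydrase genes, 0 passed.

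Bicarbonate carriers of the SLC4 family did not pass in any of the 4 genes measured. Slc4a4, the sodium bicarbonate cotransporter of the basal membrane, read 9.37, 9.03 and 9.35 in mutants and 8.90, 9.04 and 8.84 in controls. Mutants 1 and 3 were above every control and mutant 2 among them, and the difference was 0.32 ± 0.10 (adjusted p = 0.115). Without mutant 2 it was 0.43 (adjusted p = 0.0129), and with array weights, estimated from the same arrays, 0.38 (adjusted p = 0.0289). Dropping the lowest mutant raises the mutant mean by construction, and Slc4a4 passed with no other array left out. The anion exchanger gene Slc4a2 read 8.52, 8.65 and 8.68 in mutants, all below the controls at 8.70, 8.77 and 8.77 (-0.13 ± 0.06, adjusted p = 0.307). Slc4a3, its relative of heart and brain, differed by -0.10 ± 0.07, and its second feature by 0.09. Slc4a5 differed by 0.04 ± 0.06. The anion exchangers Slc26a3, Slc26a4 (pendrin) and Slc26a6, relatives of Slc26a9, had differences from -0.12 to -0.02, with adjusted p from 0.37 to 0.918. Slc26a3 and Slc26a4 were below percentile 25 of all genes in both groups, where a missing difference does not show an unchanged level.

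Of 12 other bicarbonate and anion exchanger genes, 1 fell. This was Slc4a1, the anion exchanger of red cells, at 8.31, 8.14 and 8.48 in mutants and 9.06, 9.70 and 9.44 in controls (-1.09 ± 0.16, adjusted p = 0.00507). It is itself 1 of the 5 red cell markers that fell, with Alas2, the heme synthesis enzyme of red cell precursors (-1.04, adjusted p = 0.00674). Of 9 other sodium-proton exchanger genes and partners, 19 vacuolar proton pump genes and 6 other sodium-glucose cotransporters, 0 passed.

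Of the aquaporins, Aqp4 fell and the other 3 did not pass. Aqp4, the water channel of the basolateral membrane of airway cells, read 6.21, 6.01 and 6.12 in mutants and 7.01, 7.10 and 7.02 in controls. The groups were well apart, and the fall was 1.90-fold (-0.93 ± 0.07, adjusted p = 0.000185), held with any array left out. Aqp5, the apical water channel that marks alveolar type I cells and glands later in life, read 6.96, 6.85 and 6.85 in mutants and 6.93, 6.93 and 6.97 in controls. These overlap, and the difference was -0.06 (95% interval -0.19 to 0.08). Aqp3, of basal cells in the airway, was at -0.18 ± 0.07 with all mutants below the controls (adjusted p = 0.221). Aqp1, of vessels and mesothelium, was at 0.21 ± 0.08 (adjusted p = 0.202). Among 7 other aquaporins, Aqp11, an intracellular form, rose. It read 6.83, 7.15 and 7.16 in mutants and 6.31, 6.28 and 6.06 in controls (0.83 ± 0.11, adjusted p = 0.00294).

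**Figure D3:**
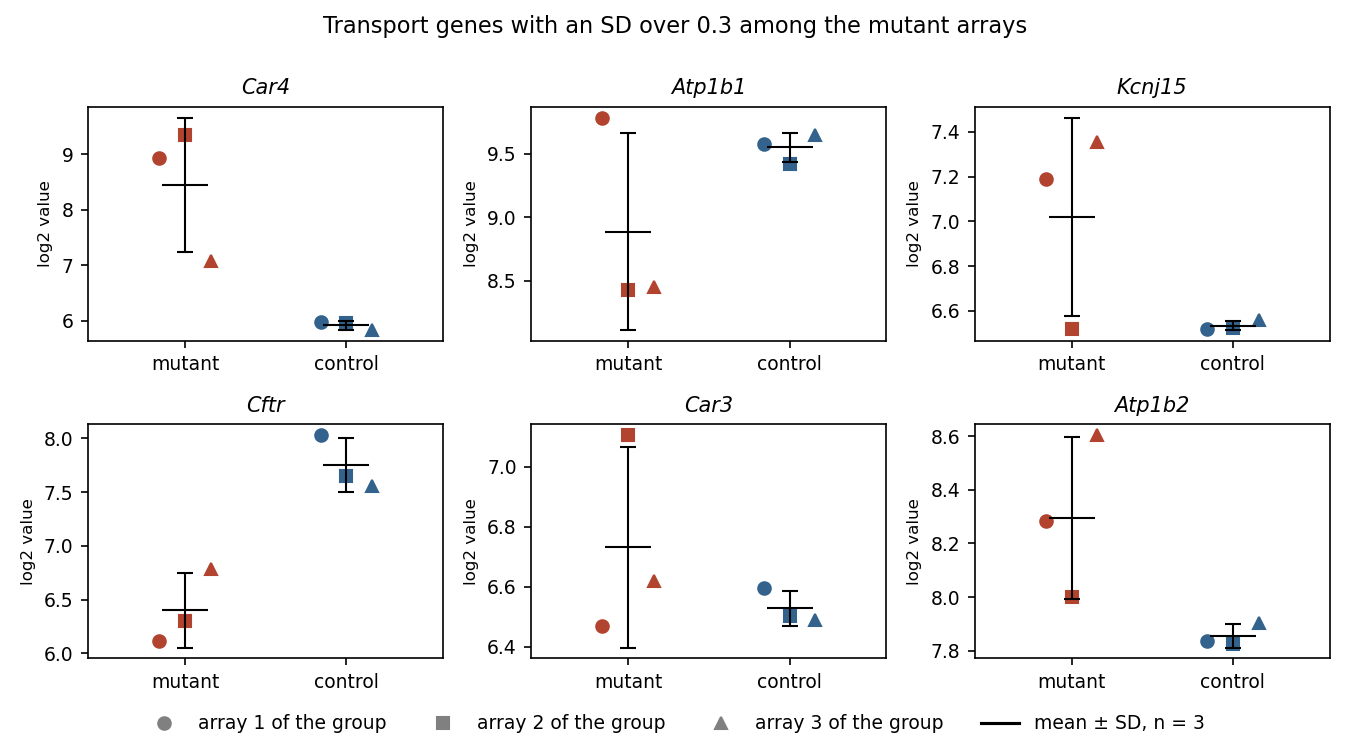
The 6 transport genes whose mutant values had an SD over 0.3 are shown, with log2 values of the 3 mutant arrays on the left, the 3 control arrays on the right, mean and SD, and a vertical scale of its own in each panel. The array that departs from the other mutants differs by gene, mutant 3 being low in Car4, mutant 1 high in Atp1b1, and mutant 2 low in Kcnj15.

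Spread was wider among mutants than among controls, in the transport genes as over the whole array. The median SD over the 43 genes was 0.080 in mutants and 0.056 in controls, beside 0.095 in mutants and 0.061 in controls over all genes. An SD over 0.3 was found for 6 genes in mutants, Car4, Atp1b1, Kcnj15, Cftr, Car3 and Atp1b2, and for 0 genes in controls. That is 14.0% of the list in mutants, while over all genes such an SD was found for 3.45% in mutants and 0.657% in controls. The SD of Car4 was 1.21 in mutants and 0.08 in controls. No array accounted for all of this. Mutant 3 read lowest of the mutants for Car4 and highest for Cftr, and mutant 2 read highest for Car4 and Car3 and lowest for Kcnj15 and Atp1b2.

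Some genes were read close to the floor of the arrays, where RMA compresses differences. Both groups were below percentile 25 of all genes for 7 of the 43, namely Slc26a3, Slc26a4, Slc9a2, Slc9a3, Slc5a1, Kcne3 and Kcnj16. Of these only Slc5a1, the sodium-glucose cotransporter, passed, at 5.28, 5.20 and 5.19 in mutants and 5.44, 5.47 and 5.47 in controls. That fall of -0.24 ± 0.05 (adjusted p = 0.0375) ended with any of 5 of the arrays left out, with adjusted p up to 0.146. It also ended when each array was centred on its median (adjusted p = 0.0594) and when all features were tested (adjusted p = 0.0778). The sodium-proton exchangers Slc9a2 and Slc9a3, of absorbing epithelia, differed by -0.03 ± 0.06 and -0.01 ± 0.06. For such genes a missing difference does not show an unchanged level.

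**Figure D4:**
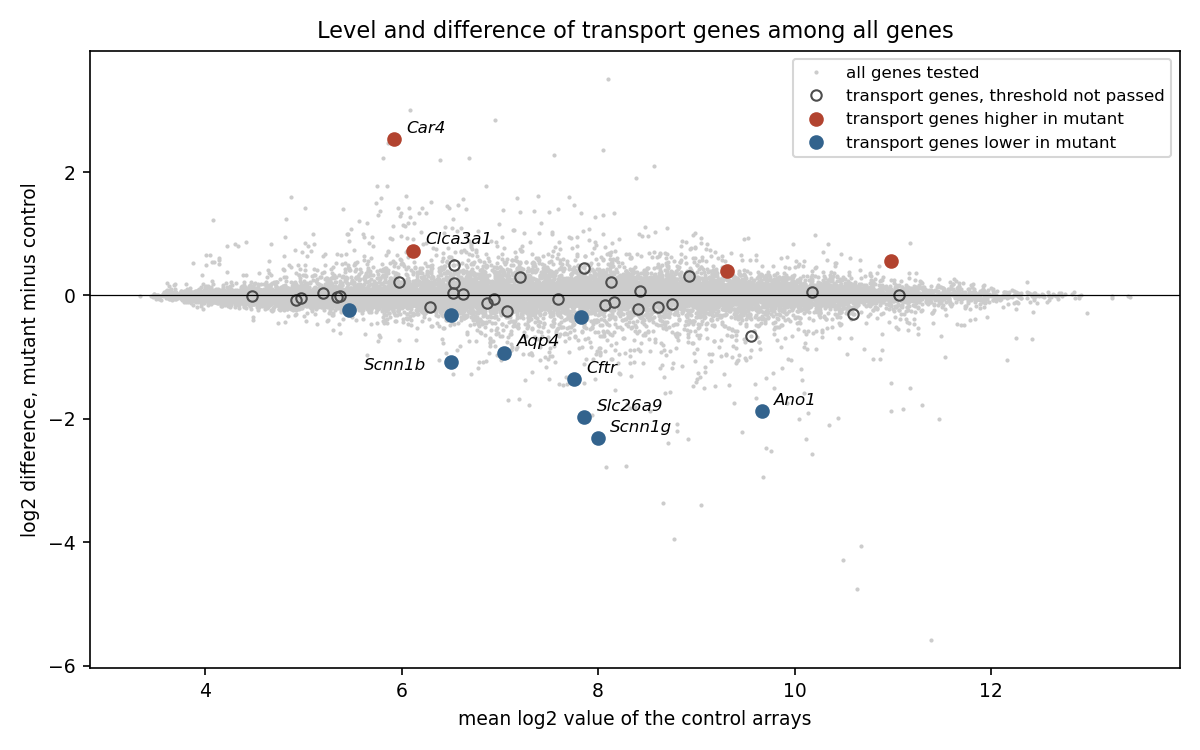
The mean log2 value of the 3 control arrays is on the horizontal axis and the log2 difference, mutant minus control, on the vertical axis, with all 19946 genes in grey and the transport genes marked. The larger falls, such as Scnn1g at -2.31 and Ano1 at -1.87, belong to genes with control means from 6.51 (Scnn1b) to 9.66 (Ano1), while the 7 dim transport genes lie between -0.24 and 0.03.

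Of the 30 transport genes that did not pass, 6 were among the dim genes, where an interval bounds little. Of the other 24, 20 had a 95% interval within 1.5-fold in either direction, and the intervals of Atp1b1, Atp1b2, Car14 and Kcnj15 reached further. Groups that did not overlap were found for 9 of the 30, 7 of them with mutants below controls, beside 19.8% of all genes that did not pass. At an unadjusted p under 0.05 stood 22 of the 43 genes, 51.2%, beside 19.8% of all genes tested.

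Across the other members of the same transport systems the shares were nearer to those of all genes. Of 146 such genes measured, 5 rose and 8 fell, 8.90% in all beside 7.66% of all genes tested, with a median difference of -0.02. These 13 genes have been named above. Both lists were chosen with earlier results of these data known, so their shares describe the lists and carry no test. The shares of the 2 lists were not tested against each other.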

How the data were processed

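RNA of whole lungs from 3 mutant and 3 control mouse embryos was hybridised to single-colour Affymetrix arrays. The authors deposited log2 values, which went through RMA according to the submitters' processing notes (tools listed there: oligo, RMA, limma). Settings of RMA and a genome build were not given in the sources used here. Groups and replicate numbers came from the sample titles, and the series counts the samples as embryos. Of 35556 features, 21797 have 1 gene symbol in the platform annotation, 1613 have several and 12146 have none here. A gene was read from its feature with the highest mean, which left 19946 genes and applied no filter on low values. Of the 43 transport genes, Atp1b3 and Slc4a3 have a second feature.

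Mutant and control were compared by a two-sided moderated test (limma 3.58.1 under R 4.3.3, functions lmFit and eBayes) with no term besides genotype and 7.96 moderated degrees of freedom. Benjamini-Hochberg adjustment ran over all genes, with a threshold of 0.05. The fit was tested on simulated data. No spot counts or detection calls were used, so 3 arrays per group set the precision. Transport genes, companion genes and marker lists were chosen with earlier results of these data known. All transport genes are named. Of the 146 other transport genes, the rule names up to 3 per system, the largest among those that passed, and Kcnk5 is named beyond it. Of 157 listed names 11 could not be matched. Promoters came from RefSeq, assembly GRCm38.p6, which was used otherwise only for names and neighbours.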

Additional observations from a re-analysis of the deposited data

How the results depend on the processing

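Of the 13 changed transport genes, Scnn1g, Slc26a9, Ano1, Cftr, Aqp4, Clca3a1, Car2 and Fxyd6 passed under every refit run, and Scnn1b under each refit that tested it. The count of changed transport genes lay between 9 and 16 with 1 array left out and between 10 and 17 under the other alternatives, except 8 when a fold of at least 1.5 was also required. That requirement removed Scnn1a, Fxyd6, Slc5a1, Car2 and Car8 by its construction. The 4 rises became 7 with array weights and 2 with the fold required, and 3 to 7 with 1 array left out, the 7 being without mutant 2. The count of falls lay between 6 and 9 with 1 array left out. The count over all genes was 828 when all features were tested and 549 with the fold required, and 774 to 1745 with 1 array left out. It was 876, 793 and 774 without control 1, 2 and 3. The count of other transport genes was 8 with all features, 20 at an adjusted p under 0.1 and 4 with the fold required. It was 6 to 15 with 1 array left out, and 8, 7 and 6 without control 1, 2 and 3. The cause was not tested. The replicate numbers are not said to pair embryos, and deviations of same-numbered arrays correlated at -0.07, 0.05 and 0.15. With the replicate block 1137 genes, 11 transport genes and 9 other transport genes passed, and Scnn1a (adjusted p = 0.067) and Slc5a1 (adjusted p = 0.11) were lost. Without the dimmest genes (1 in 3), 34 of the 43 were tested and Scnn1b and Slc5a1 got no value. Signs turned only for differences near 0. Atp1b3 was at 0.0288 with features averaged and from -0.0389 to 0.0367 with 1 array left out. Slc26a3 was at 0.00718 and Slc9a3 at 0.0118 after quantile normalization, and Slc9a3 at 0.00106 with array weights. With 1 array left out Slc26a3 ran from -0.0420 to 0.00523, Slc9a3 from -0.0422 to 0.0203, Fxyd5 from -0.00243 to 0.15 and Kcnn4 from -0.0223 to 0.0692. Dim genes limit what a missing difference can show.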
